A study of Mus musculus with 6 samples.

Results

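The genes described here are 34 mouse genes of the amino acid and ATF4-CHOP stress response, listed by name and found by their gene symbol in the array's annotation, out of 16593 genes with a symbol. They were read in cultured embryonic stem cells that carry a doxycycline-inducible Sox17, an endoderm transcription factor, and in a control line. The 6 bead arrays hold 2 independently derived Sox17-inducible lines given doxycycline (induced line 1 and induced line 2), those lines untreated (untreated line 1 and untreated line 2), and the control line KH2 with doxycycline and without it, 1 array each. Doxycycline induces the transgene; cells received 1 µg/mL over 5 days, and all cells grew feeder-free in medium with serum and LIF. Each line is a single derivation, and the promoter and site of the inducible construct are not given in the sources used here. Values are log2 normalised signal, a change is the level with doxycycline minus the level without it in the same line, and levels of different genes are not compared because each probe has its own brightness.

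When amino acids run short, haem is low, double-stranded RNA appears or the endoplasmic reticulum is overloaded, kinases phosphorylate the translation factor eIF2alpha. Most protein synthesis then slows while the transcription factor ATF4 is made. ATF4 pairs with C/EBP family factors and switches on genes for amino acid synthesis and import, and also CHOP (gene Ddit3), TRIB3 and CHAC1, which shape or end the response. In many cell types mitochondrial stress also sets the response off.

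Of the 34 genes, 32 had at least 1 probe, 50 probes in all, and Pycr1 and Gdf15 had none. Psph (a serine synthesis enzyme), Slc7a11 (the cystine-glutamate exchanger) and Slc7a1 (a cationic amino acid transporter) were not above the negative controls on any array. Cebpg, a C/EBP factor that pairs with ATF4, was detected only in induced line 2. The remaining 28 genes had 39 tested probes, that is, probes detected on at least 2 arrays at a detection p under 0.05. Each is read below by its brightest tested probe, and 27 of the 28 were detected on all 6 arrays. The exception was Atf3, which was not well above background in untreated line 1.

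The labelled cell type was checked by its markers: 8 of 8 embryonic stem cell markers, Pou5f1, Nanog and Sox2 among them, were detected on all 6 arrays. Of 4 neural markers Pax6 and Sox1 were detected on none, Nes on all 6 and Tubb3 on 2 arrays. The mesoderm markers Mixl1, Eomes and Kdr were detected on none. Of 6 fibroblast markers Thy1 was detected on all 6 arrays, Col1a1 on 5 and the others on none. Sox17 read 5.61 in induced line 1 and 6.47 in induced line 2, against 5.26 and 5.601 in the untreated lines, and was above detection in induced line 2 only. The position of its probe in the transcript is not given in the sources used here, so it does not check the labels. Of 25697 probes, 11219 to 11957 were detected on an array, and with 6 arrays, precision is limited by their number.

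A DNA element that ATF4 and C/EBP factors bind together, the C/EBP-ATF composite element, has the core TGATGNAA. Both strands of each promoter window, 250 bases before to 50 bases after the gene start, were searched for it in RefSeq sequence of GRCm38.p6. Windows were at hand for 31 of the 34 genes and 10 of these held the core, or 32.3%, against 1219 of 27025 genes, or 4.51%. The element was worked out on genes of this kind, so the higher share is no independent result. Among the 28 tested genes 25 had a window and 8 of them the core: Atf3, Chac1, Asns, Nupr1, Herpud1, Fgf21, Vldlr and Trib3, the last with the core after the gene start, at bases 15 to 22. The other seven are shown because they are stress genes whose signal is described below; capitals mark the core, written 5′ to 3′ on the strand of the gene, where TTGCATCA is the core read on the opposite strand.

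Atf3 (chr1:191183411-191183468, minus strand): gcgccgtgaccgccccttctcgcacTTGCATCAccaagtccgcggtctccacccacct
Chac1 (chr2:119351024-119351081, plus strand): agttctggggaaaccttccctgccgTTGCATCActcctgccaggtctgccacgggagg
Asns (chr6:7693210-7693257, minus strand): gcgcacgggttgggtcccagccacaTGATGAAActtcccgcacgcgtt
Nupr1 (chr7:126625548-126625605, minus strand): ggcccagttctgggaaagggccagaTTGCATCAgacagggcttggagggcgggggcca
Herpud1 (chr8:94386292-94386349, plus strand): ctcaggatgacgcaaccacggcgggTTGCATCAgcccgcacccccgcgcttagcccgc
Fgf21 (chr7:45615597-45615654, minus strand): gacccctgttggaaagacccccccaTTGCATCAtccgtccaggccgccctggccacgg
Vldlr (chr19:27216795-27216852, plus strand): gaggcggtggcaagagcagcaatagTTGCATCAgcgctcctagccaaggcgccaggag

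The core begins 23 bases before the start in Asns, 110 in Atf3 and Nupr1, 112 in Herpud1, 139 in Fgf21, 193 in Chac1 and 200 in Vldlr, where it was in 1 of 2 windows. The 8 tested genes with the core had, in line 1, a median change of 1.41 (0.37 to 1.97), or 1.26 with Atf3 at the least change its background reading allows, against 0.80 (-1.01 to 2.29) for the 17 with a window and no core. In line 2 the medians were 0.18 and 0.14, and in KH2 0.23 and 0.22. Ddit3, with the largest change in line 1, had no core in this window, which says only that these letters are not there. The ranges of the genes with and without the core overlapped in line 1. Whether the core goes with a larger change was not tested.

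The first comparison asked how the stress genes differed between induced and untreated cells of the inducible lines. In line 1 most of them read higher with doxycycline, 26 of the 28 against 48.6% of all tested genes. Ddit3, Chac1, Trib3 and Vldlr were furthest among those measured on both arrays. In line 2, 21 were higher (49.3% of all genes were), with Ddit3, Atf3, Vldlr and Slc7a5 furthest above their untreated level. In the control line KH2, 18 of the 28 were higher with the drug, where 52% of all genes were, Trib3 furthest, and Slc38a2 was furthest below. Over the 28 genes line 1 had a median change of 0.96, line 2 one of 0.17 and KH2 one of 0.19, against -0.011, -0.004 and 0.019 over all 8605 tested genes. The genes were listed with results of these arrays known, so their common direction is not independent evidence.

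In line 1, 20 of the 28 genes were at least 1.5-fold higher with doxycycline, where 6.65% of all tested genes were, and 1 was at least 1.5-fold lower, where 6.18% were. In line 2 the counts were 2 higher (3.73% of all genes) and 1 lower (3.65%). In KH2 they were 1 higher (5.85%) and 1 lower (9.6%). The 2 genes that were 1.5-fold higher in both inducible lines were Ddit3 and Atf3, where 1.12% of all genes were, and 0 were 1.5-fold lower in both, where 0.802% were. The counts in line 2 and in KH2 rest on 1 or 2 genes each. By any amount, 20 of the 28 genes were higher in both inducible lines, where 29.3% of all genes were.

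**Figure D1:**
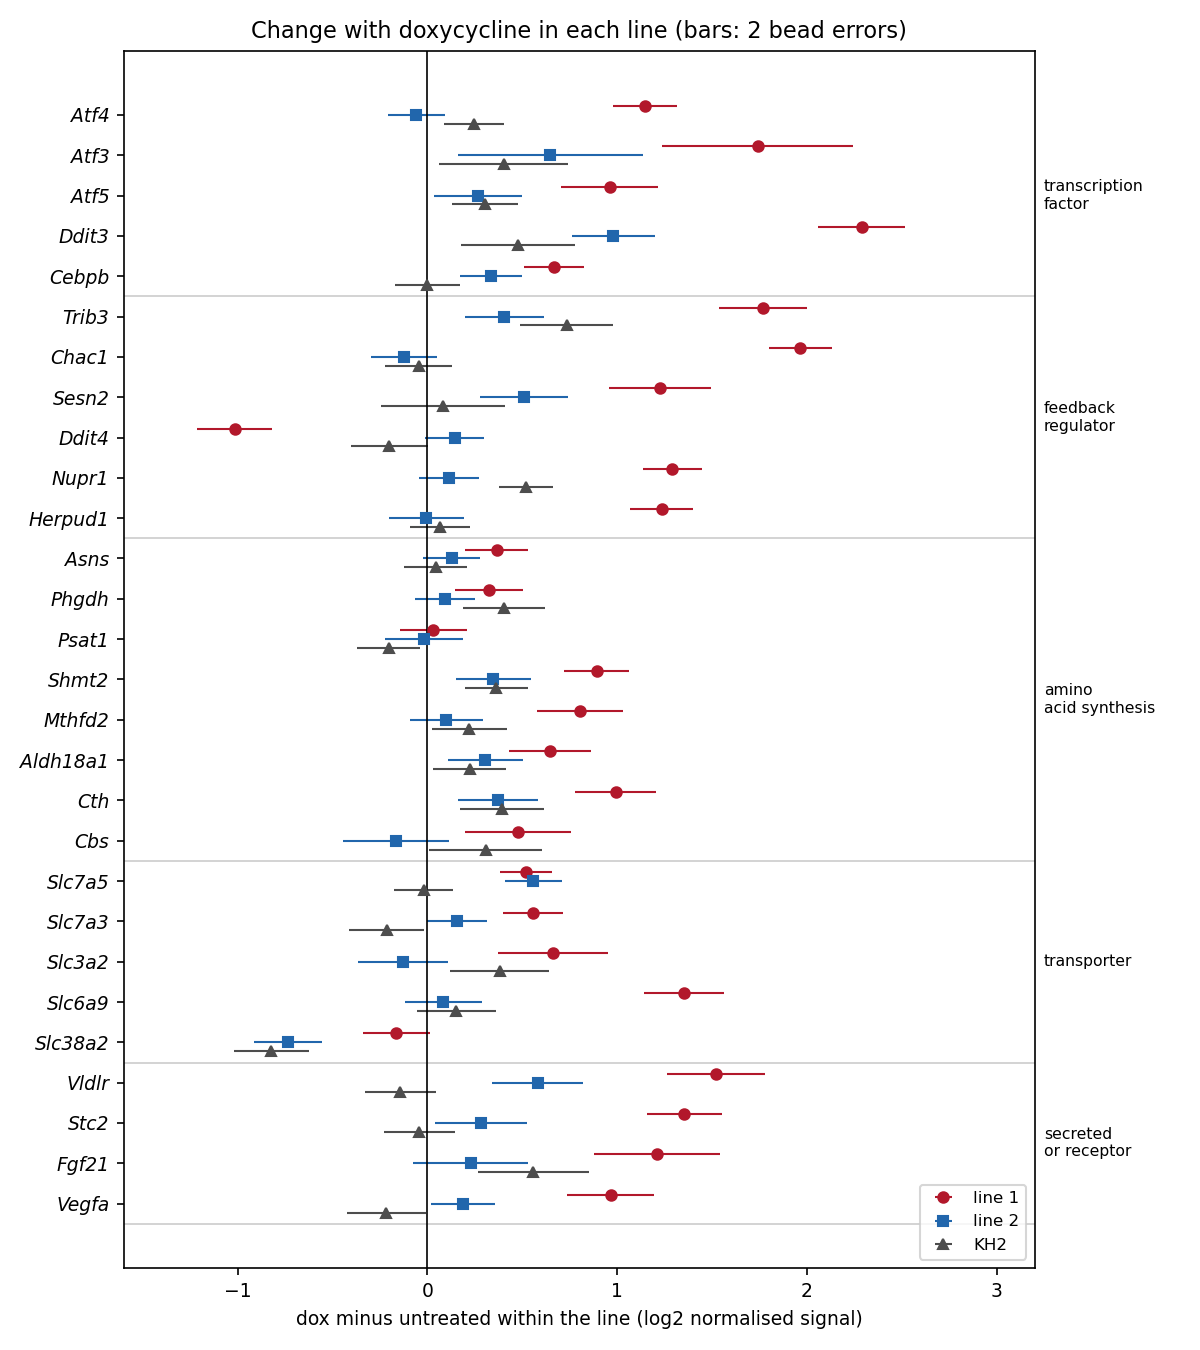
Change with doxycycline (level with the drug minus level without, log2 normalised signal) of the 28 tested genes in line 1 (circles), line 2 (squares) and KH2 (triangles), grouped by role; bars are 2 bead errors to each side and cover the beads of 1 array pair only. In line 1, 20 genes lie at least 1.5-fold above 0, in line 2 Ddit3 and Atf3 do, and in KH2 Trib3 does; Ddit4 in line 1 and Slc38a2 in line 2 and KH2 lie below. The line 1 point of Atf3 rests on an untreated reading not above background.

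The transcription factors come first. Atf4, the activator at the head of the response, is controlled mainly through its translation, so its transcript need not follow its protein. Its level was 12.04 in induced line 1 and 11.92 in induced line 2, against 10.90 and 11.98 in the untreated lines, and 11.52 in KH2 with doxycycline against 11.27 without. Untreated line 1 was the lowest of the 6 arrays and the induced and untreated groups overlapped, since line 2 differed by -0.06 where line 1 differed by 1.15. Ddit3, which encodes CHOP, read 9.88 in induced line 1 and 10.26 in induced line 2, against 7.59 and 9.28 in the untreated lines and 8.03 in KH2 with doxycycline against 7.56 without. Both induced arrays were above all 4 others. With doxycycline Ddit3 was higher by 2.29 (line 1), 0.98 (line 2) and 0.48 (KH2), and its second probe gave 2.10, 0.76 and 0.30. Among 8605 genes Ddit3 ranked 3 by its change in line 1 and 38 in line 2.

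Atf3, a bZIP repressor that ATF4 induces, read 6.82 and 6.64 in induced lines 1 and 2, against 5.08 and 5.99 untreated, with 6.79 in KH2 given doxycycline and 6.38 in KH2 without. Induced and untreated Sox17 lines did not overlap, but both KH2 arrays were above both untreated lines. Because untreated line 1 was not well above background, the change in line 1 is a bound of at least 2.30-fold, and the change in line 2 was 0.65. Atf5, a bZIP factor linked to mitochondrial stress, read 11.17 and 11.01 in the induced lines, against 10.21 and 10.74 untreated and 10.81 and 10.50 in KH2 with and without the drug. Cebpb, a C/EBP factor, read 10.26 and 10.20 in the induced lines, against 9.59 and 9.86 untreated, and 10.24 in both KH2 arrays. The induced lines were above the untreated lines for Atf5 and Cebpb, while KH2 overlapped the induced lines for Cebpb.

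Next are the regulators that act on the response itself. Trib3, a pseudokinase that restrains ATF4, read 9.76 and 9.44 in the induced lines, against 7.99 and 9.04 untreated, and 9.08 in KH2 with doxycycline against 8.35 without. It was higher with the drug in each of the 3 lines (1.77, 0.40 and 0.73), and it was the only tested member at least 1.5-fold higher in KH2. Chac1, which degrades glutathione, read 13.50 and 12.97 in the induced lines, against 11.53 and 13.09 untreated, and 12.65 and 12.70 in KH2 with and without the drug. Its change of 1.97 in line 1 stood beside -0.12 in line 2 and -0.05 in KH2, and the induced and untreated groups overlapped.

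Sesn2, a sestrin that restrains mTORC1 when leucine is low, read 8.17 and 7.65 in the induced lines, against 6.95 and 7.14 untreated and 7.66 and 7.57 in KH2 with and without the drug. Its changes were 1.23 and 0.51 in the Sox17 lines and 0.08 in KH2, and the induced lines did not overlap the untreated ones. Nupr1, a small stress-induced chromatin protein, was higher by 1.29 in line 1, 0.11 in line 2 and 0.52 in KH2. Herpud1, a membrane protein of endoplasmic reticulum quality control, was higher by 1.24 in line 1 and differed by -0.01 in line 2 and 0.07 in KH2, and its second probe gave 1.23, -0.11 and -0.08.

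Ddit4, which encodes the mTORC1 inhibitor REDD1, went the other way. It read 10.72 in induced line 1 and 10.90 in induced line 2, against 11.73 and 10.76 untreated, and 10.89 in KH2 with doxycycline against 11.09 without. Untreated line 1, the lowest array for most members, was the highest here, and the change in line 1 was -1.01 against 0.14 in line 2.

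**Figure D2:**
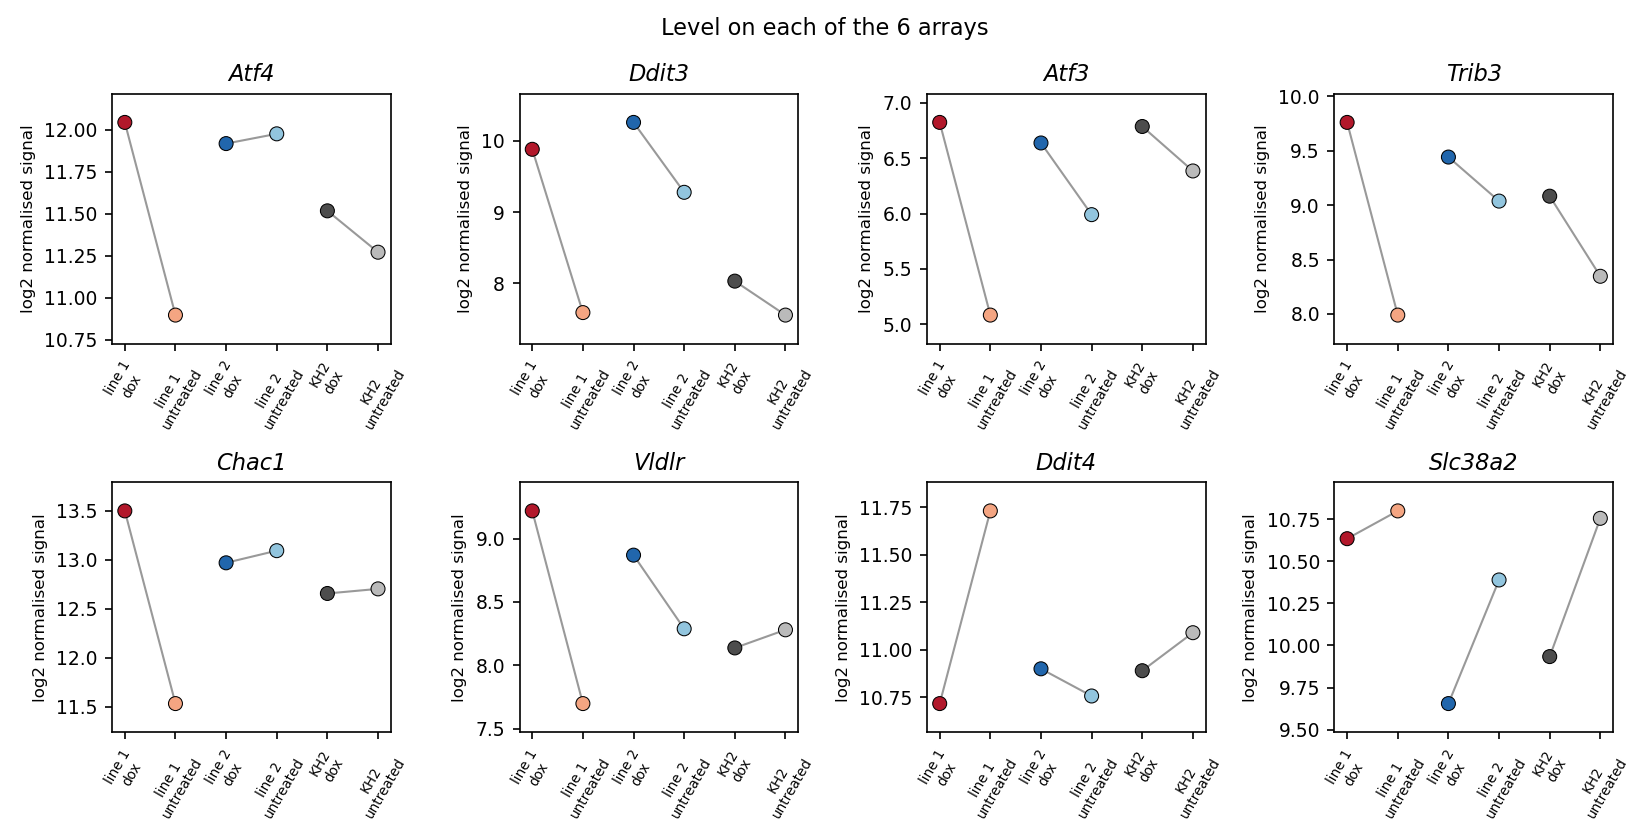
Level (log2 normalised signal) of 8 members, chosen for display after their values were seen, on each of the 6 arrays, with a line joining the array with doxycycline to the untreated array of the same cells. Untreated line 1 is the lowest of the 6 arrays for Atf4, Atf3, Trib3, Chac1 and Vldlr and the highest for Ddit4 and Slc38a2.

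Of 8 tested enzymes of amino acid synthesis, 8 were higher with doxycycline in line 1, 6 in line 2 and 7 in KH2. Of all tested genes 48.6%, 49.3% and 52% were. The changes in line 1 were 0.03 to 0.99, and the medians were 0.56 in line 1, 0.11 in line 2 and 0.27 in KH2. Cth, the transsulfuration enzyme that releases cysteine, read 10.24 and 9.82 in the induced lines, against 9.25 and 9.45 untreated and 9.67 and 9.27 in KH2 with and without the drug. Shmt2, which makes glycine from serine in mitochondria, read 10.42 and 9.88 in the induced lines, against 9.53 and 9.54 untreated and 9.90 and 9.54 in KH2. For both genes the induced lines were above the untreated ones, and KH2 with doxycycline overlapped the induced lines for Shmt2 only. Mthfd2, the mitochondrial folate enzyme next to Shmt2, had changes of 0.80, 0.10 and 0.22.

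Aldh18a1, the first enzyme of proline synthesis, read 10.62 and 10.14 in the induced lines, against 9.97 and 9.84 untreated and 9.88 and 9.66 in KH2 with and without the drug, so both induced arrays were above the 4 others. Phgdh, the entry enzyme of serine synthesis, was higher by 0.32, 0.09 and 0.41 in line 1, line 2 and KH2, the KH2 value being the largest. Psat1, the next enzyme of that path, differed by 0.03, -0.02 and -0.21. Cbs, the enzyme before Cth, had 0.48, -0.17 and 0.31, and its second probe 0.43, 0.28 and 0.57.

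Asns, asparagine synthetase, a classic target of ATF4, differed by probe. Its brightest probe read 14.58 and 14.68 in the induced lines, against 14.21 and 14.55 untreated and 14.38 and 14.34 in KH2, a change of 0.37 in line 1. The other Asns probes, which were dimmer, gave 0.56 and 0.91 (line 1), 0.27 and 0.03 (line 2) and 0.28 and 0.57 (KH2). The size of its change therefore depends on the probe, and whether brightness plays a part was not tested.

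Among the transporters, Slc7a5, which imports large neutral amino acids, was the member whose changes in the 2 inducible lines were most alike. It read 13.97 and 13.59 in the induced lines, against 13.45 and 13.03 untreated and 13.12 and 13.14 in KH2 with and without the drug. Its changes were 0.52, 0.56 and -0.02, and both induced arrays were above the 4 others. Slc3a2, the heavy chain that pairs with it, had 0.66, -0.13 and 0.38.

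Slc6a9, a glycine transporter, read 9.62 and 8.98 in the induced lines, against 8.27 and 8.89 untreated and 9.08 and 8.93 in KH2, and its change was 1.35 in line 1 and 0.08 in line 2. Slc7a3, a cationic amino acid transporter, had 0.56, 0.16 and -0.21, and its dim second probe 0.10, -0.40 and 0.45. Slc38a2, which imports small neutral amino acids, was lower with the drug in all 3 lines. It read 10.63 and 9.65 in the induced lines, against 10.80 and 10.39 untreated, and 9.93 in KH2 with doxycycline against 10.75 without. The largest of these differences, -0.82, was that of KH2. Its second probe gave 0.02 in line 1 and -0.47 in line 2, and read 9.73 in KH2 with doxycycline against 10.73 without.

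The secreted and receptor genes were higher with doxycycline in both inducible lines for 4 of 4 tested genes, where 29.3% of all tested genes were. In line 2, 0 of the 4 were at least 1.5-fold higher. Vldlr, a lipoprotein receptor gene that ATF4 induces, read 9.22 and 8.87 in the induced lines, against 7.70 and 8.29 untreated and 8.14 and 8.28 in KH2 with and without the drug. Both induced arrays were above the 4 others by its brightest probe, with changes of 1.52 and 0.58, against -0.14 in KH2. Its other tested probes gave 1.41 and 1.45 (line 1), 0.29 and 0.11 (line 2) and 0.18 and -0.52 (KH2). Stc2, which encodes a stanniocalcin, read 8.89 and 8.59 in the induced lines, against 7.53 and 8.31 untreated and 8.12 and 8.17 in KH2. Vegfa, the angiogenic growth factor gene, read 9.43 and 9.26 in the induced lines, against 8.47 and 9.08 untreated and 8.52 and 8.74 in KH2, while its second probe gave changes of 0.68, 0.58 and 0.42. For Stc2 and for the brightest Vegfa probe both induced arrays were above the 4 others. Fgf21, a stress hormone gene, read 7.48 and 6.89 in the induced lines, against 6.27 and 6.66 untreated and 7.22 and 6.66 in KH2 with and without the drug, so that KH2 with doxycycline lay between the induced lines.

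The test across all probes called none of these genes. With limma and Benjamini-Hochberg adjustment, 0 of 12373 probes (0%) reached the adjusted threshold of 0.05 between induced and untreated lines. Moderation with a trend and robust variances also gave 0. Before adjustment, 528 probes (4.27%) and 11 of the 28 genes were below 0.05, Atf3 among them with an untreated reading that was not above background. Ddit3 had a mean change of 1.64 ± 0.52 (moderated SE, 2 arrays against 2), Trib3 1.09 ± 0.36, Vldlr 1.05 ± 0.27 and Chac1 0.92 ± 0.50, each with an adjusted p of 0.955. The moderated SE is that of limma, which draws the variance of each probe toward that of all tested probes. It can therefore be smaller than the spread of the arrays of that gene. With the line as a replicate block, which leaves 1 residual degree of freedom, Gata6, a primitive endoderm factor and no member, was the 1 probe that passed. In that fit 16 members and 1686 probes (13.6%) had an unadjusted p under 0.05. The smallest adjusted p of a member was 0.127, that of Ddit3. Nothing in the labels says that arrays came from separate cultures, so the errors rest on differences between the 2 lines. Without the block these are differences in level, and with it differences in the change with doxycycline. Both are drawn toward the variance of all tested probes.

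Bead error is the standard error of the mean of the beads that carry 1 probe on 1 array. Combined over the 2 arrays, it gives the technical precision of a single difference. In line 1, 25 of the 28 genes were higher by over 2 bead errors (21.9% of all tested genes were) and 1 was lower (23.3%). In line 2, 13 were higher (18.2%) and 1 lower (18%), and in KH2 14 were higher (25.5%) and 4 lower (25%). Small increases in line 2 and in KH2 were thus above the reading error of the beads for about as many members in each. Bead error holds no difference between cultures, so it does not show an effect of the drug or of Sox17.

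The untreated array of line 1 had a large part in the values of that line. It was the lowest of the 6 arrays for 19 of the 28 genes, where it was the lowest for 20.6% of all tested genes, and induced line 1 was the highest for 21 of 28, where it was for 14.3%. Set against each gene's own mean over the 6 arrays, the median member stood at 0.56 in induced line 1, 0.13 in induced line 2, -0.43 in untreated line 1, -0.07 in untreated line 2, -0.03 in KH2 with doxycycline and -0.17 in KH2 without. The same medians over all tested genes ran from -0.01 to 0.01. Without the untreated array of line 1 the median difference between induced and untreated lines was 0.39, against 0.59 with all arrays. Without the induced array of line 1 it was 0.41, without the induced array of line 2 it was 0.71 and without the untreated array of line 2 it was 0.78. Single genes moved more: Atf4 had 0.00 to 1.08, Chac1 0.14 to 1.70 and Nupr1 0.09 to 1.31, depending on which array was left out, while Ddit3 had 0.79 to 2.48 and Vldlr 0.76 to 1.35.

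**Figure D3:**
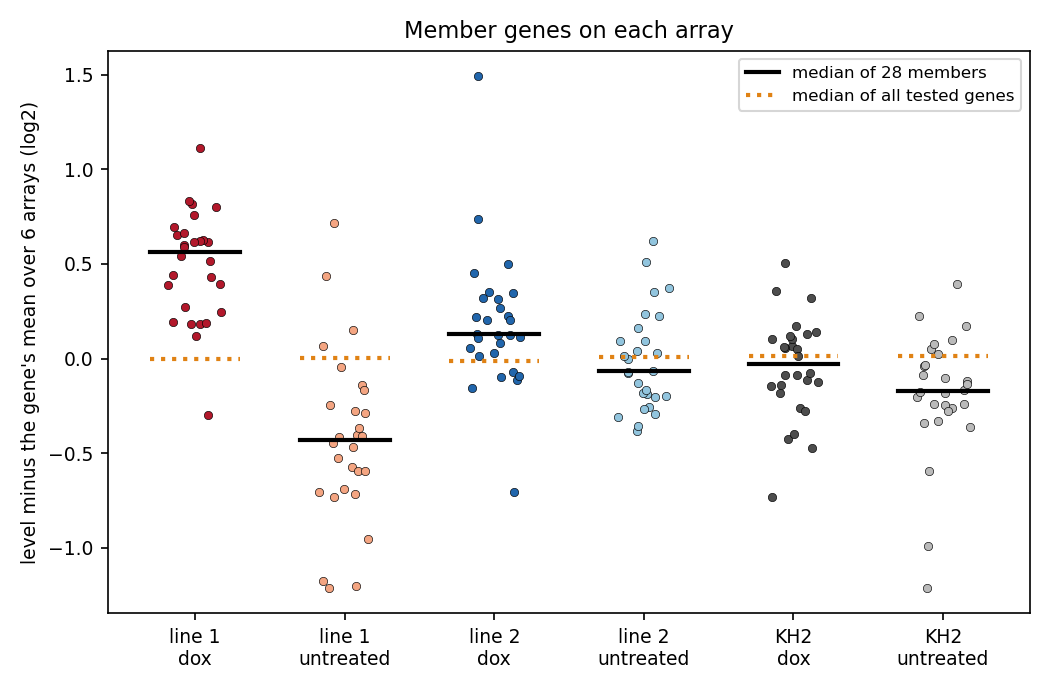
Level of each of the 28 tested genes minus that gene's mean over the 6 arrays (log2), by array; solid bars are the median of the members and dotted bars the median of all tested genes. The members' median is 0.56 in induced line 1 and -0.43 in untreated line 1, with the other 4 arrays between -0.17 and 0.13.

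Markers of extraembryonic endoderm, with Sox17 among them, also differed between these arrays. Of the 10 markers, 9 were detected on at least 1 array and Foxa2 on none, and Sox7 and Sox17 on 1 each. The log2 of their summed signal was 12.81 in induced line 1 and 13.50 in induced line 2, against 11.56 and 12.84 in the untreated lines, and 12.24 in KH2 with doxycycline against 11.95 without. By this sum, in which the brightest markers weigh most, untreated line 1 was the lowest array here too. Of the 5 markers detected on all 6 arrays, Gata6, Col4a1, Lama1 and Sparc were lowest there. Dab2 was not, at 8.33 in untreated line 1 against 7.92 in untreated line 2. Induced line 2 had the highest sum of these markers, where induced line 1 was the highest for most stress genes. Their part in the stress gene values was not tested, and in a culture more cells of a type and more RNA per cell cannot be told apart.

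Next, KH2 cells given doxycycline served as the control for the induced lines, so that the drug was on both sides and the standing differences between cell lines were included. The median difference was 0.25 over the 28 genes and -0.01 over all tested genes. In the induced lines Ddit3 was higher by 2.04 ± 0.64 (moderated SE, 2 arrays against 1), Nupr1 by 1.19 ± 0.48, Vldlr by 0.91 ± 0.33 and Vegfa by 0.83 ± 0.32. Atf3, Cebpb and Fgf21, by contrast, differed by -0.06 ± 0.39, -0.01 ± 0.25 and -0.04 ± 0.34. The Vegfa difference is that of its brightest probe. Its second probe read 7.34 and 7.55 in the induced lines against 7.26 in KH2 with doxycycline. By limma 0 probes (0%) passed, also when trend and robust variances were used (0). Unadjusted, 1370 probes (11.1%) and 4 members were under 0.05, and the smallest adjusted p of a member was 0.417.

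The third comparison was between the induced lines and the 4 other arrays together, that is, the untreated lines and KH2 with and without the drug. For 12 of the 28 genes both induced arrays were above the 4 others, where this held for 8.33% of all tested genes, and for 0 both were below, where it held for 8.89%. Ddit3 was higher by 1.95 ± 0.43 (moderated SE, 2 arrays against 4), Nupr1 by 1.08 ± 0.38, Trib3 by 0.99 ± 0.31 and Vldlr by 0.94 ± 0.22. For Nupr1 untreated line 2 read 11.72, near the induced lines (11.79 and 11.83). Its other arrays were lower: untreated line 1 at 10.50, and KH2 at 10.62 with doxycycline and 10.10 without. By limma 0 probes (0%) passed, with 0 under trend and robust moderation and 945 (7.64%) under an unadjusted 0.05, among them 13 members. The smallest adjusted p of a member was 0.445, shared by Ddit3 and Vldlr. Without the untreated array of line 2, 26 probes passed by limma and Ddit3 was the 1 member among them, with an adjusted p of 0.0164. The array left out there had the highest Ddit3 level of the 4 uninduced arrays, 9.28. Without the untreated array of line 1 instead, 0 probes passed by limma and the smallest adjusted p of a member was 0.56.

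The fourth comparison took the response of KH2 off the mean response of the inducible lines, and so asked whether the change with doxycycline was larger where Sox17 could be induced. Vldlr differed by 1.19 ± 0.47 (moderated SE), Ddit3 by 1.16 ± 0.90, Chac1 by 0.97 ± 0.87, Stc2 by 0.86 ± 0.52, Sesn2 by 0.79 ± 0.43 and Vegfa by 0.79 ± 0.45. Trib3, with its increase in KH2, differed by 0.35 ± 0.62, Atf4 by 0.30 ± 0.62 and Nupr1 by 0.18 ± 0.68. The Vegfa value is again that of its brightest probe, and the second probe was higher in KH2 too, by 0.42. By limma 0 probes (0%) passed, 0 under trend and robust moderation, and 344 (2.78%) had an unadjusted p under 0.05, with Vldlr the 1 member among them. The adjusted p was 0.996 for each of the 28 genes, so a response beyond that of KH2 was not shown for any of them with these arrays. This comparison shares its induced and untreated arrays with the first.

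Genes around the members were described by lists of their own, with 0 called in any list between induced and untreated lines. Of 15 other targets of ATF4 and CHOP, 10 were tested. All 10 were higher in line 1, 8 in line 2 and 7 in KH2, where 48.6%, 49.3% and 52% of all tested genes were. The medians were 0.68 in line 1, 0.20 in line 2 and 0.04 in KH2. Jdp2, a bZIP repressor related to ATF3, read 8.21 and 8.40 in the induced lines, against 6.02 and 7.82 untreated and 7.90 and 6.99 in KH2 with and without the drug. Slc1a4 and Slc1a5, neutral amino acid transporters, were higher by 1.24 and 1.42 (line 1), 0.53 and 0.18 (line 2) and 0.01 and 0.22 (KH2). For each of the 3 genes the largest change was in line 1.

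The cytosolic tRNA synthetases load amino acids onto tRNAs, and ATF4 induces many of them. Of 18 tested, 14 were higher in line 1, 14 in line 2 and 9 in KH2, where 48.6%, 49.3% and 52% of all tested genes were. Their medians were 0.28, 0.12 and -0.002. Mars (now Mars1), Wars and Cars had 0.60, 0.55 and 0.48 in line 1 and 0.37, 0.33 and 0.31 in line 2, and only Mars among all 18 was at least 1.5-fold higher in line 1. The genes that act on eIF2alpha had medians of 0.21, -0.29 and -0.06 over 6 tested genes. Within them Ppp1r15a, which encodes the stress-induced phosphatase subunit GADD34, was higher by 0.66 and 0.51, against 0.17 in KH2, while the haem-regulated kinase gene Eif2ak1 had -0.35, -0.31 and -0.13. The gene of the endoplasmic reticulum kinase PERK, Eif2ak3, had 0.36, 0.15 and 0.01.

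Lists for endoplasmic reticulum folding, mitochondrial chaperones and oxidative stress had medians nearer to 0 in line 1 than the lists above. The endoplasmic reticulum folding genes controlled by ATF6 and XBP1 had medians of 0.07, 0.08 and -0.15 over 13 tested genes, with Sel1l at 0.07, 0.66 and -0.05 and the chaperone gene Hsp90b1 at -0.54, -0.14 and -0.93. Mitochondrial chaperones and proteases had 0.09, -0.09 and -0.36 over 7 genes, and Yme1l1, an inner membrane protease gene, was at -0.32, -0.57 and -1.15. The NRF2 targets of oxidative stress had 0.10, 0.12 and 0.09 over 6 genes, with Hmox1 at 0.56, 0.20 and 0.08.

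Ddit4 and Vegfa are also targets of the hypoxia factor HIF, and Sesn2 and Atf3 of p53. The 8 tested HIF targets had medians of -0.19, 0.09 and 0.01, with the oxygen-sensing hydroxylase gene Egln3 at -1.38 in line 1, 0.06 in line 2 and -0.75 in KH2 and Ldha, a glycolytic enzyme gene, at -0.57, -0.55 and -0.28. Of the 8, 3 were higher in line 1, where 48.6% of all tested genes were. The 10 tested p53 targets had -0.47, 0.13 and -0.08, with 1 of 10 higher in line 1 and Cdkn1a, the cell cycle inhibitor p21, at -0.76, 0.07 and 0.43. The kinase gene Plk2 had 0.08, 0.92 and 0.31, and Trp53inp1 had -0.56, -0.18 and -1.02. In line 1 the members named with HIF differed in sign, Ddit4 at -1.01 and Vegfa at 0.97.

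**Figure D4:**
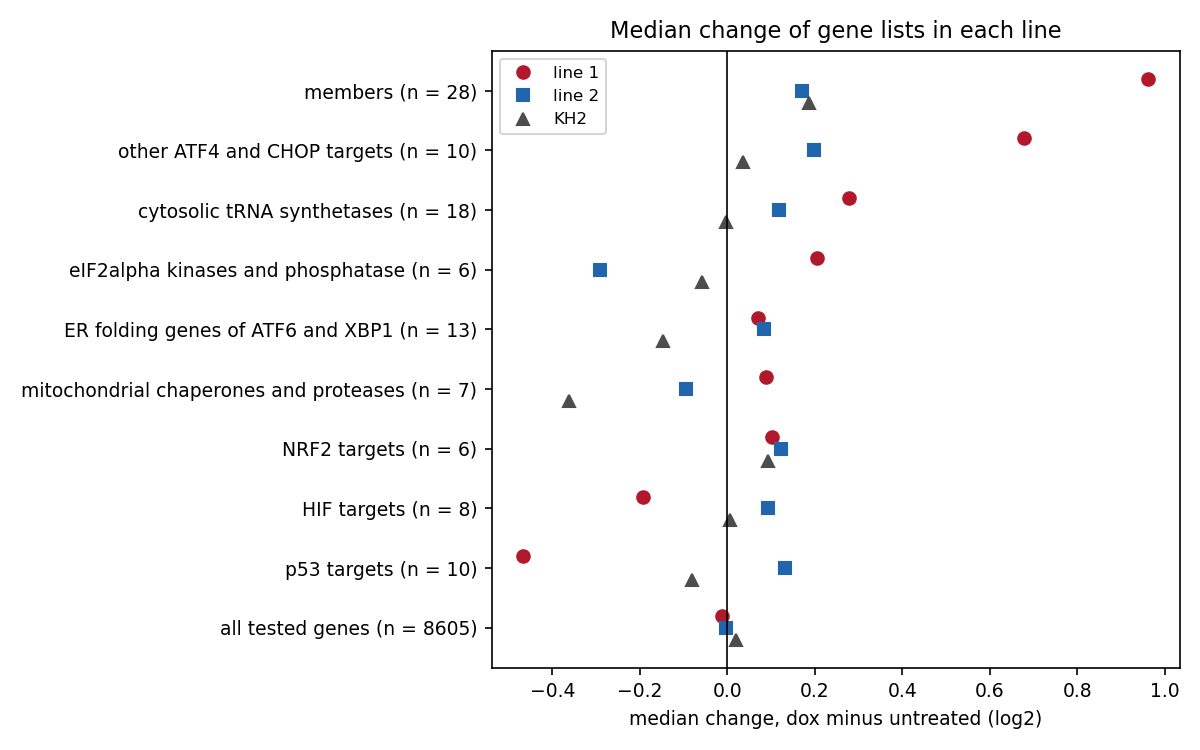
Median change with doxycycline (log2) of the 28 tested members, of 8 related gene lists and of all 8605 tested genes, in line 1 (circles), line 2 (squares) and KH2 (triangles). The members (0.96) and the other ATF4 and CHOP targets (0.68) stand furthest above 0 in line 1, and the p53 targets (-0.47) furthest below.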

How the data were processed

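Total RNA of 6 samples was amplified and hybridised to Illumina bead arrays of 1 chip, per the labels' protocols. The deposited table gives, per the file headers, mean bead signal and bead standard error as intensity on a linear scale, bead numbers (whole counts of beads) and a detection p-value. The authors' second deposited table holds intensity values processed with BeadStudio, per the submitters' processing notes, by a method not given in the sources used here; they lie on a linear scale with values below 0.

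Signal was background-corrected (normexp, negative controls inferred from detection p-values, offset 16), quantile-normalised and set on the log2 scale (neqc, limma 3.58.1, R 4.3.3). Of 25697 probes, 12373 had a detection p below 0.05 on 2 or more arrays and entered two-sided limma tests (lmFit, eBayes), with Benjamini-Hochberg adjustment across those probes; the fit with 4 group means has 2 residual degrees of freedom. KH2 arrays, 1 per group, were assumed to vary like the others. Symbols come from the platform annotation, updated by Entrez number; 1719 probes have none. The line with no number in its label was taken as line 1. Arrays were paired by line, as labelled; the difference between the lines correlated with r = 0.509 over 12373 probes between induced and untreated arrays. Bead error was carried to the log2 scale by dividing by background-corrected signal. All members with a detected probe are named, and at most 3 genes from each related list, those with the largest mean change. Members and lists were chosen with earlier results of these data known. The fits were tested on simulated data.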

Additional observations from a re-analysis of the deposited data

Results flagged for a closer look

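One gene had changes of opposite sign in the inducible lines and in the control line, each larger than 2 bead errors. Vegfa had changes of 0.97 (line 1), 0.19 (line 2) and -0.22 (KH2), a difference of 0.79 between the mean response of the inducible lines and that of KH2. By limma this difference had an adjusted p of 0.996. The second Vegfa probe was higher in all 3 lines (0.68, 0.58 and 0.42), so the opposite sign in KH2 rests on 1 probe. With groups of 1 or 2 arrays, no array could be tested as an outlier within its group.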

How the results depend on the processing

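The number of probes called stayed at 0 in all 4 comparisons with quantile normalisation alone, the authors' values, an offset of 50, no filter on dim probes, and trend and robust moderation. With the line as a replicate block it was 1 in the comparison with the untreated lines and 1 in that with all uninduced arrays, both times Gata6, and 0 in the difference of responses; the comparison with KH2_dox could not be fitted with this block, since line and group coincide. Leaving out each array of the inducible lines gave 0 to 26 called probes against all uninduced arrays and 0 in the other comparisons. The median over the members moved by less than the spread between the lines under every alternative run: with all arrays of the fit kept, it was 0.53 to 0.64 for the induced against the untreated lines, 0.83 to 1.03 in line 1, 0.15 to 0.20 in line 2 and 0.15 to 0.22 in KH2. Of the 28 genes, 5 changed sign somewhere. Psat1 read -0.008 in the authors' values and -0.13 to 0.15 with an array left out, and with an array left out Slc38a2 read -0.94 to 0.04, Ddit4 -0.92 to 0.051, Cbs -0.10 to 0.41 and Slc3a2 -0.061 to 0.59. The cause was not tested. The members not above background give no change at all.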
